A study of Mus musculus with 6 samples.

Results

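Ryr2, Crisp3, Hs3st1, Sema5a and Pxdc1 are 5 of the 56884 genes counted in RNA from spleens of mice carrying transferred cells of a mantle cell lymphoma model and from normal splenic B cells. They were chosen by their raw counts, well counted in all 3 wild-type libraries and nearly absent or far lower in the 3 recipient spleens. All 5 matched a row by Ensembl ID and passed the filter on low counts, among 15462 genes tested. The choice used the very contrast of the study, with no numerical limit, so their levels and fold changes are a description and carry no test.

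The P1 group is whole spleen of 3 recipients at passage 1 of an adoptive transfer (replicates 3, 4 and 5) in the Eµ-SOX11CCND1 mouse model. Eµ, the enhancer of the immunoglobulin heavy chain locus, drives transgenes in lymphoid cells, above all B cells. The WT group is splenic B cells that were selected before RNA extraction, from 3 wild-type mice, in columns whose names carry BL6. No column could be tied to a single mouse, so the libraries go by the letters A to C. The age and sex of the mice, the strain of the recipients and how many donors gave the transferred cells are not given in the sources used here. Neither are separate cultures or batches, so p-values measure only the spread between these libraries.

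Library totals ran from 7510327 to 10363396 counts in P1 and from 12196413 to 14266132 in WT. The TMM factor was 0.578 in P1 replicate 4 and between 1.086 and 1.184 in the other 5 libraries. B cell markers (15 genes, such as Cd79a) summed to 1153 to 3377 CPM (counts scaled to a common TMM-adjusted library total) in P1, against 10320 to 10897 in WT, and no marker was at 0 in either group. Red cell precursor markers (10 genes) summed to 6646 to 223344 CPM in P1, against 98.4 to 120 in WT. Neutrophil markers (10 genes) summed to 1064 to 7833 CPM in P1, against 2.44 to 8.09 in WT, and T cell markers (10 genes) to 249 to 620, against 42.5 to 55.3. Macrophage markers (10 genes) summed to 607 to 1747 CPM in P1, against 276 to 802 in WT, and stromal and endothelial markers (10 genes, of which Madcam1 was at 0 in WT) to 90.7 to 233, against 262 to 314. Pecam1 made up most of that WT sum, with 88 ± 15.2 CPM in P1 and 277 ± 28.8 in WT (SD, n = 3 each), and of the 7 stromal and endothelial markers tested with edgeR 5 were higher and 1, Pecam1, lower (their median was 5.18 in log2 fold change). The cell selection of the WT samples, the genotype, the transfer and the tumour differ together between the groups and cannot be told apart. In these bulk samples fewer cells of a type and less RNA per cell cannot be told apart either.

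The 5 genes have unrelated roles. Ryr2 encodes ryanodine receptor 2, a very large channel that lets calcium out of the endoplasmic reticulum and is best known from heart muscle. Sema5a encodes a transmembrane semaphorin, a family of cell-surface and secreted guidance signals read by plexins. Crisp3 encodes a cysteine-rich secretory protein of the CAP superfamily and was described in mouse B lineage cells as a gene under the control of the octamer-binding factor Oct-2. Hs3st1 encodes the Golgi enzyme that adds the rare 3-O-sulfate of the antithrombin-binding site in heparan sulfate. Pxdc1 encodes a protein with a PX domain, a fold that in many proteins binds phosphoinositide lipids.

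RefSeq's promoter table held 1 window for each of the 5 genes (GRCm38.p6). The 250 bases before each start are printed because Oct-2 and other B cell factors bind DNA motifs that can be looked for there. The genes were low together by choice, and shared control was not tested. Capitals mark every match, on either strand, to a fixed set of motifs: the octamer ATGCAAAT, the EBF palindrome, the E-box CAGGTG, the PU.1 core GAGGAA, the kappaB site, the AP-1 site TGANTCA, the Runx core TGTGGT, the Sox core AACAATG and the TATA box, TATAAA. They also mark ATGCAAA, a 7-letter part of the octamer that was added after the sequences were seen.
Ryr2, chr13:12106946-12107195, minus strand: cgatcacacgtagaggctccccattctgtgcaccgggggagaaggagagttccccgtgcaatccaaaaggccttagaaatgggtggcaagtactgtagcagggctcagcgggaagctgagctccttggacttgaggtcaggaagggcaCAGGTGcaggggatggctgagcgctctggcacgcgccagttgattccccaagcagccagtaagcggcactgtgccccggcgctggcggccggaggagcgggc
Crisp3, chr17:40242289-40242538, minus strand: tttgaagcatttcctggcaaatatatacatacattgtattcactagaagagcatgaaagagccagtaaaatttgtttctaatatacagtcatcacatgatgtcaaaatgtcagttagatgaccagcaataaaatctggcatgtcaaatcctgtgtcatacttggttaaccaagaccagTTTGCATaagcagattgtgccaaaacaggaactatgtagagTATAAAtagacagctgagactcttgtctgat
Hs3st1, chr5:39644632-39644881, minus strand: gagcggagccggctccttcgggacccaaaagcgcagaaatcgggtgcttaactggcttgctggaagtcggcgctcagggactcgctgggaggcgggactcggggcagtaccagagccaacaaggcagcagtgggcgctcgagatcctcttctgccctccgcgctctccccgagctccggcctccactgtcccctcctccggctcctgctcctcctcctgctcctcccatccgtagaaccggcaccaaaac
Sema5a, chr15:32244563-32244812, plus strand: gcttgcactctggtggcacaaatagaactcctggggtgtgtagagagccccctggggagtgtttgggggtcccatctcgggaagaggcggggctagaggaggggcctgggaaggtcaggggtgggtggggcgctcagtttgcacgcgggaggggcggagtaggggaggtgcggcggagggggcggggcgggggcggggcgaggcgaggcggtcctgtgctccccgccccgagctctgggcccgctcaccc
Pxdc1, chr13:34652682-34652931, minus strand: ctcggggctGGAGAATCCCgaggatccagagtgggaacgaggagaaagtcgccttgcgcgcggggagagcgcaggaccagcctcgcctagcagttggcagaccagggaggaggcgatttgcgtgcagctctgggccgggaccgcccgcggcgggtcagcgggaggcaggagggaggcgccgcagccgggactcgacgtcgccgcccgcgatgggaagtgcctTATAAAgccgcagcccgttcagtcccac

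The promoters were unlike each other. The Crisp3 window of 300 bases, with the 50 after the start, held 0 CpG dinucleotides and 37.7% G and C, and only 6.63% of the 32851 windows of the table had a lower G and C content. The other 4 were rich in G and C, at 65.3% for Ryr2, 67% for Hs3st1, and 71.3% for both Sema5a and Pxdc1, with 18, 24, 23 and 36 CpG dinucleotides, against medians of 52.7% and 7 over all windows. A TATAAA stood 31 bases before the start of Crisp3 and 28 before that of Pxdc1, and 13.6% of all windows held one. The full octamer was in none of the 5 windows and in 1.74% of all windows. Crisp3 held the 7-letter part on the opposite strand, 72 bases before the start, as 4.63% of all windows did. Ryr2 held 1 E-box (20.2% of all windows) and Pxdc1 a kappaB match (19.2%). The EBF, PU.1, AP-1, Runx and Sox letters were in none of the 5 windows (0.904%, 28.3%, 7.81%, 16.8% and 3.78% of all windows). No matches overlapped in the 5 windows. These are matches of letters, not measured binding.

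Ryr2 (ENSMUSG00000021313, GRCm39 chromosome 13, 11567988 to 12121831, minus strand) had 0.172, 0 and 0 CPM in P1 replicates 3, 4 and 5 (2, 0 and 0 counts). It had 9.82, 11.2 and 12.6 CPM in WT A, B and C (162, 175 and 167 counts). All 3 P1 libraries lay below all 3 WT libraries, as they did for each of the 5 genes by choice and for 24.9% of all tested genes. Summed over libraries, the P1 level was 0.732% of the WT level (95% counting interval 0.0884 to 2.66%). Both P1 counts came from replicate 3. A count of 0 was taken to allow up to 3 counts, which is 0.694 CPM in replicate 4 and 0.348 in replicate 5. With that limit set once over these 2 libraries together (0.232 CPM), Ryr2 was at least 48-fold lower than in WT.

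Sema5a (ENSMUSG00000022231, chromosome 15, 32244956 to 32696487, plus strand) had 0.516, 1.16 and 0.116 CPM in P1 replicates 3, 4 and 5 (6, 5 and 1 counts). It had 30.7, 32.6 and 38.5 CPM in WT A, B and C, from 506, 507 and 509 counts. Its WT coefficient of variation was 12%, against a median of 10.3% over genes at a like level, of which 61.1% varied less. The P1 libraries spread more, on few counts. The summed P1 level was 1.45% of WT (0.75 to 2.55%), and the fitted log2 fold change was -6.01 ± 0.58 (standard error).

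Crisp3 (ENSMUSG00000025433, chromosome 17, 40532668 to 40553179, minus strand) had 0.258, 0 and 0 CPM in P1 replicates 3, 4 and 5 (3, 0 and 0 counts). It had 8.54, 16.4 and 7.41 CPM in WT A, B and C (141, 255 and 98 counts). As for Ryr2, the P1 counts came from replicate 3 alone. The summed P1 level was 1.12% of WT (0.23 to 3.29%), and by the same limit over replicates 4 and 5 the gene was at least 47-fold lower than in WT. Crisp3 also varied most among the WT libraries, with a coefficient of variation of 45.3%. The median was 14.9% over the 3620 tested genes within 2-fold of its WT level, and 95.6% of them varied less.

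Hs3st1 (ENSMUSG00000051022, chromosome 5, 39771278 to 39912818, minus strand) had 0.43, 0.463 and 0.464 CPM in P1 replicates 3, 4 and 5 (5, 2 and 4 counts). It had 36.2, 54.5 and 52.6 CPM in WT A, B and C (598, 849 and 696 counts). The P1 values were close to each other, but the counts are few. Their counting intervals were 0.14 to 1, 0.056 to 1.67 and 0.126 to 1.19 CPM, all far below the lowest WT library, WT A. The summed P1 level was 0.946% of WT (0.472 to 1.7%), and the fitted log2 fold change was -6.70 ± 0.38. Its WT coefficient of variation of 21% was above that of 91.6% of genes at a like level.

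Pxdc1 (ENSMUSG00000021411, chromosome 13, 34811817 to 34837469, minus strand) had 2.58, 5.09 and 0.348 CPM in P1 replicates 3, 4 and 5 (30, 22 and 3 counts). It had 146, 165 and 159 CPM in WT A, B and C (2415, 2577 and 2106 counts). The summed P1 level was 1.43% of WT (1.08 to 1.86%), with a fitted log2 fold change of -5.98 ± 0.71. The WT values were tight, with a coefficient of variation of 6.21%, whereas the P1 libraries stood apart from each other.

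**Figure D1:**
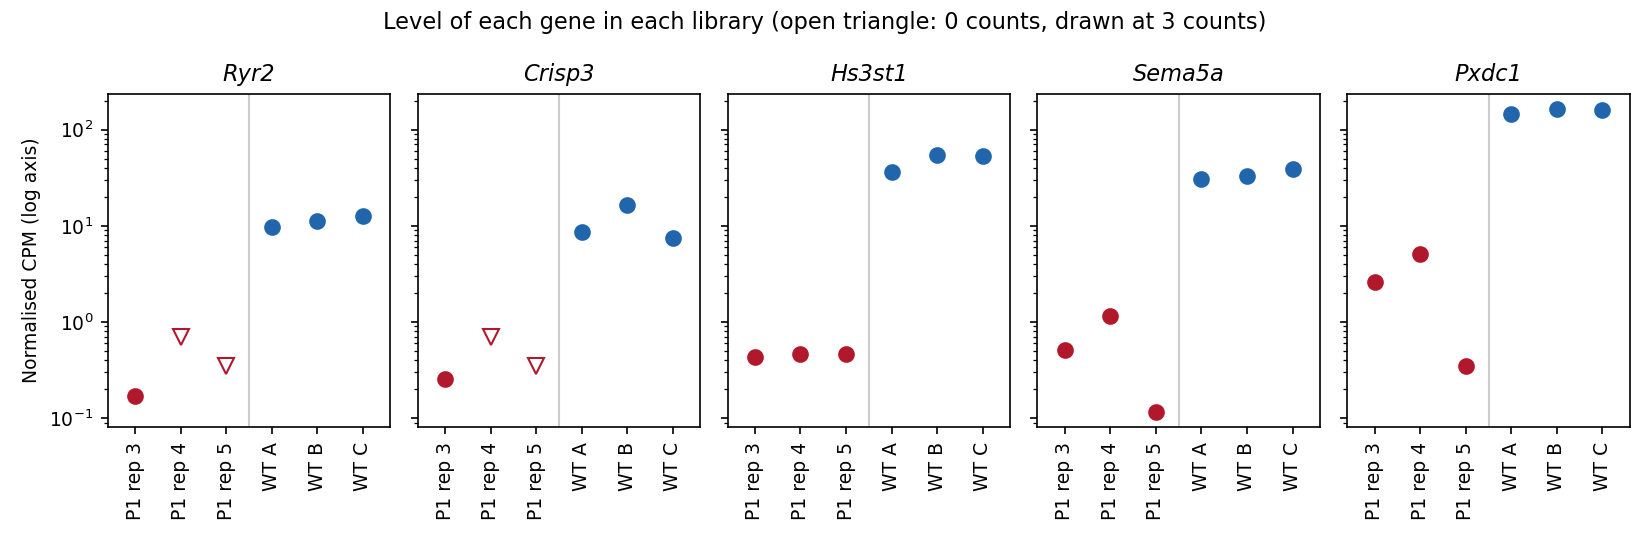
Normalised CPM (log axis) of each gene in each library, with the 3 P1 spleens left and the 3 WT B cell samples right. Open triangles are libraries with 0 counts, drawn at the level of 3 counts. In every panel the P1 points lie far below the WT points, and Pxdc1 has the highest P1 mean, with libraries at 0.348 to 5.09 CPM.

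Per kilobase of exon, the order of the WT levels was Pxdc1 (50.2 to 56.8 CPM per kilobase), Hs3st1 (16.2 to 24.4), Crisp3 (5.23 to 11.6), Sema5a (1.64 to 2.06) and Ryr2 (0.341 to 0.438). No neighbours in this order overlapped. They covered much of the range of the tested genes, since Pxdc1 stood at percentile 95.5 of the WT levels per kilobase and Ryr2 at percentile 11.1. In P1 the ranges were 0.119 to 1.75 CPM per kilobase for Pxdc1, 0.193 to 0.208 for Hs3st1, 0 to 0.182 for Crisp3, 0.00621 to 0.0619 for Sema5a and 0 to 0.00597 for Ryr2. There Pxdc1 overlapped Hs3st1 and Crisp3, and Crisp3 overlapped both Sema5a and Ryr2. Ordered by fitted log2 fold change from the lowest, the genes stood at places 23 (Ryr2), 29 (Hs3st1), 35 (Crisp3), 41 (Sema5a) and 43 (Pxdc1) of 15462. The mature B cell genes Cr2, a complement receptor, and Fcer2a, the low-affinity IgE receptor CD23, stood at places 1 and 6.

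The few reads left in P1 were not spread alike. The Pxdc1 level of P1 replicate 4 had a counting interval of 3.19 to 7.71 CPM and that of replicate 3 one of 1.74 to 3.68, both above the interval of replicate 5, 0.0718 to 1.02. Sema5a had the same order, with intervals of 0.376 to 2.7 CPM in replicate 4, 0.189 to 1.12 in replicate 3 and 0.00294 to 0.646 in replicate 5, which overlapped. The red cell precursor markers stood in this order too, at 36169, 223344 and 6646 CPM in replicates 3, 4 and 5. The B cell markers stood in the reverse order, at 1687, 1153 and 3377 CPM. For Pxdc1 and Sema5a the step from replicate 3 to replicate 4 came mostly from the TMM scaling, so their order in these 2 libraries rests on it. Raw counts in replicates 3 and 4 were 30 and 22 for Pxdc1 and 6 and 5 for Sema5a. The library totals were 10363396 and 7510327 counts, and the TMM factors 1.13 and 0.578. Ryr2 and Crisp3 had reads only in replicate 3, where Cr2 had 34 counts and Fcer2a 58, against 0 and 2 counts of Cr2 and 2 and 2 of Fcer2a in replicates 4 and 5. Replicate 3 also had the most neutrophil, T cell and macrophage marker counts (7833, 620 and 1747 CPM). The part of other cells in these remaining reads was not tested.

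**Figure D2:**
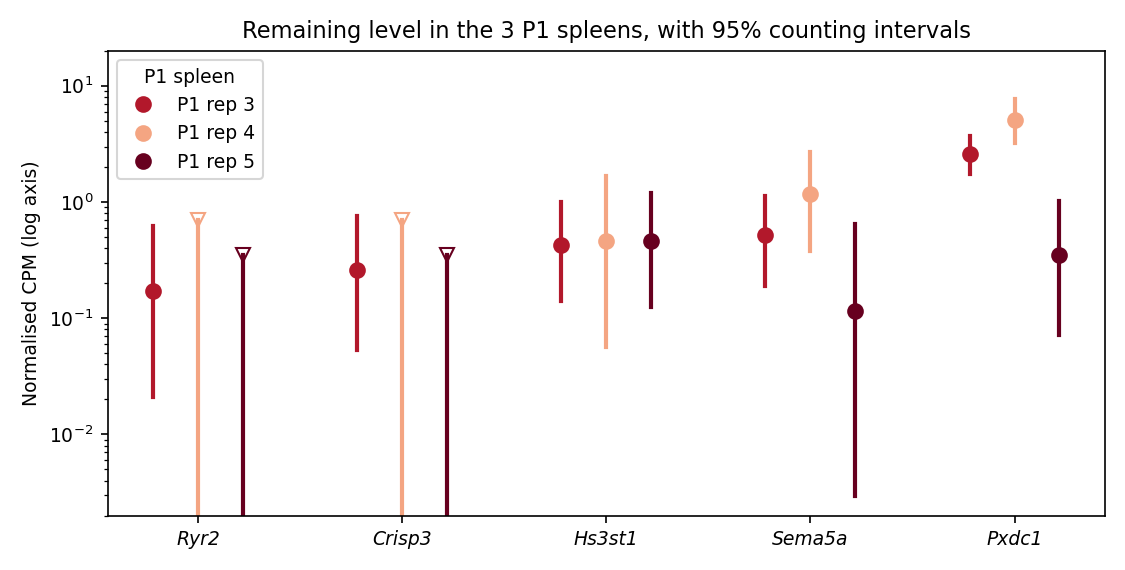
Normalised CPM (log axis) of the 5 genes in the P1 spleens, 1 colour per replicate, with 95% counting intervals as bars. Open triangles mark libraries with 0 counts, at the level of 3 counts. The intervals of Hs3st1 overlap, while the Pxdc1 interval of replicate 5 (0.0718 to 1.02 CPM) lies below those of replicates 3 and 4.

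Because B cell markers were themselves lower in P1, the genes were also set against them. Per 1000 counts of the 15 markers, summed over libraries, Ryr2 had 0.0372 counts in P1 and 1.04 in WT, and Crisp3 had 0.0559 and 1.02. Hs3st1 had 0.205 in P1 and 4.42 in WT, Sema5a 0.223 and 3.14, and Pxdc1 1.02 and 14.6. By this measure the WT level was 27.9 times the P1 level for Ryr2 (counting interval 7.69 to 231), 18.2 for Crisp3 (6.2 to 88.7), 21.6 for Hs3st1 (12 to 43.3), 14 for Sema5a (8.02 to 27.2) and 14.3 for Pxdc1 (11 to 19). The counting intervals leave out the spread between spleens. P1 replicate 5 held 29109 marker counts, against 19618 in replicate 3 and 4981 in replicate 4. Without P1 replicate 5 the ratio was 6.92 for Pxdc1, 7.02 for Sema5a and 15.5 for Hs3st1. Without replicate 4 it was 21.6, 21.8 and 23.9. Ryr2 and Crisp3 had too few P1 counts for such ratios, so their dependence on single spleens is not known. All 3 P1 libraries stayed below all 3 WT libraries for each of the 5. Where the gene had reads, the nearest in ratio were Sema5a and then Pxdc1 in P1 replicate 4. They had 1 and 4.42 per 1000 in that library, against 2.83 and 13.5 in WT A. Ryr2 and Crisp3 had 0 counts there. On its 4981 marker counts the limit of 3 counts comes close to their lowest WT values, 0.906 and 0.718 per 1000. Cr2 and Fcer2a had 0.67 and 1.15 per 1000 in P1 and 68.6 and 55.9 in WT, ratios of 102 (73.9 to 146) and 48.4 (37.7 to 63.1). The interval of Ryr2 contains both of these ratios and that of Crisp3 the ratio of Fcer2a. Without P1 replicate 5 the ratios were 49.6 for Cr2 and 22.9 for Fcer2a, and for Fcer2a 476 without replicate 3. On the log2 CPM scale, where the prior count shrinks differences of low genes, the mean of the markers was 6.06 in P1 and 9.03 in WT. The difference between a gene and that mean was shifted in P1 by -2.50 (Crisp3) to -3.36 (Pxdc1). For Pxdc1 the shift was -2.06 without P1 replicate 5 and -4.54 without replicate 4, and for Sema5a -1.85 and -3.79.

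**Figure D3:**
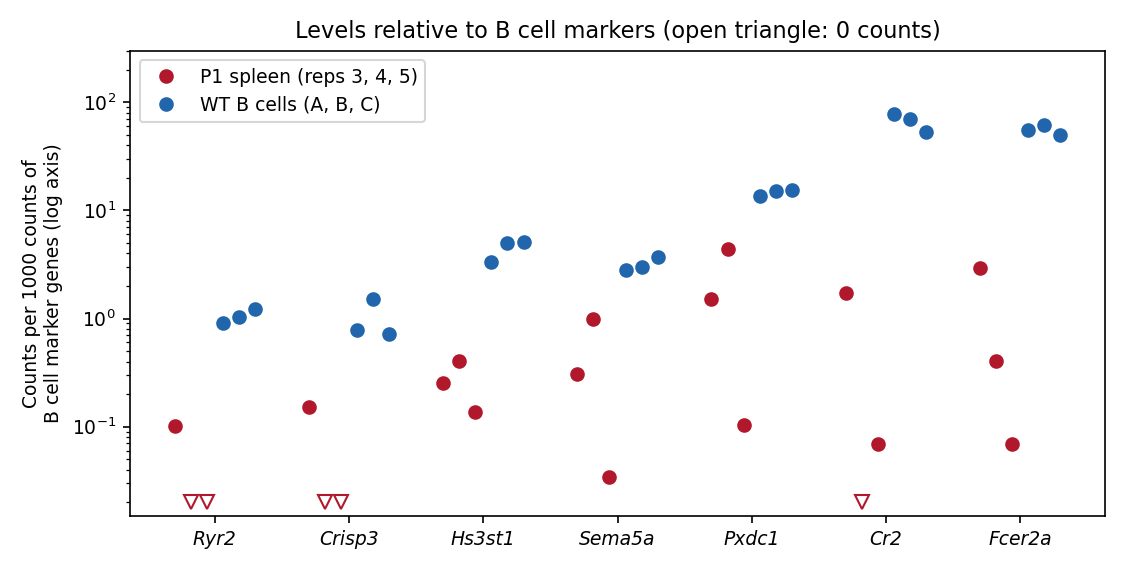
Counts of each gene per 1000 counts of the 15 B cell markers (log axis), with P1 replicates 3, 4 and 5 left and WT A, B and C right within each gene. Open triangles at the foot are libraries with 0 counts, drawn at a fixed height that is not the level of 3 counts. The 5 genes stay lower in P1 than in WT on this scale, and the P1 values of Pxdc1 spread from 0.103 to 4.42.

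The families of the 5 genes did not share their low level. Across all tested genes, 27.9% were called, 16.9% higher and 11% lower in P1, and the median log2 fold change was 0.02 (edgeR quasi-likelihood test, 3 libraries per group). These are counts of single genes from that fit, each list without its own chosen gene. They were 41 higher and 21 lower over the 6 lists, but 21 and 13 when WT A was left out and 20 and 13 when WT B was. With the libraries scaled to equal B cell markers, the median of all genes moved to 3.07, and 14044 genes were called higher and 100 lower. In the lists that gave 135 higher and 1 lower, so that of the called falls named below only that of Ebf1 was also called on that scale.

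Of 37 genes of calcium stores and pumps, 29 were tested, of which 7 were higher (24.1%), 3 lower (10.3%) and 19 not past the threshold, with a median of 0.06. Neither of the other ryanodine receptors passed the threshold. Ryr1, the skeletal muscle form, averaged 15.1 ± 7.95 CPM in P1 and 10.5 ± 0.989 in WT (SD, n = 3 each), with a log2 fold change of 0.50 ± 0.40 (edgeR adjusted p = 0.391). Ryr3 averaged 2.55 ± 1.6 CPM in P1 and 1.13 ± 0.0683 in WT (1.11 ± 0.53, edgeR adjusted p = 0.159). Per kilobase Ryr2 was at 0.39 CPM in WT, between Ryr1 (0.481) and Ryr3 (0.0596), and far under the IP3 receptor Itpr3 (77.8). Itpr3, which releases store calcium upon antigen receptor signals, fell to 93 ± 3.04 CPM in P1, against 702 ± 77.4 in WT (-2.91 ± 0.29, edgeR adjusted p = 0.000599). Itpr2 fell less (-1.19 ± 0.26, adjusted p = 0.0105, edgeR), as did the kinase gene Camk2d (-1.08 ± 0.25, adjusted p = 0.0142, edgeR). Leaving out WT A ended the Itpr2 call (adjusted p = 0.0563), and leaving out any 1 WT library that of Camk2d (0.0518 for A, 0.0722 for B and 0.056 for C). For the list, 3 higher and 1 lower genes were called when WT A was left out, 3 and 2 without WT B, 4 and 2 without WT C, and 7 and 5 without P1 replicate 5. The plasma membrane calcium pump gene Atp2b4, abundant in red cells, rose to 380 ± 241 CPM in P1, against 2.44 ± 1.64 in WT (7.29 ± 0.85, edgeR adjusted p = 0.000909), in spleens rich in red cell precursor markers, whose part was not tested. Atp2b2 and Asph rose as well (3.28 ± 0.61 and 2.55 ± 0.59, edgeR adjusted p = 0.00526 and 0.0136), but Asph passed neither without WT A (0.0636) nor without WT B (0.0677).

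Of 33 semaphorin, plexin and receptor genes, 25 were tested, and 14 of them were higher (56%) and 1 lower (4%), with a median of 1.92. Without WT A or without WT B 6 were higher, and without WT C 10. Without P1 replicate 5, 2 were lower. Sema5b, the closest relative of Sema5a, had 1, 1 and 2 counts in P1 and 0 in each WT library and was not tested. Nrp1, a co-receptor of secreted semaphorins, rose to 46.7 ± 15.3 CPM in P1, against 2.41 ± 0.515 in WT (4.27 ± 0.38, edgeR adjusted p = 0.000511). Sema3f, a secreted semaphorin, had 16, 362 and 17 counts in P1 and 1, 4 and 1 in WT (7.64 ± 1.87, edgeR adjusted p = 0.0174), so P1 replicate 4 held most of its reads. Sema4c rose by 4.30 ± 1.13 (edgeR adjusted p = 0.023). Leaving out any 1 WT library ended the Sema3f call (0.07 for A, 0.0619 for B and 0.0586 for C). For Sema4c, WT A (0.0819), WT B (0.0966) and P1 replicate 4 (0.066) each did. Without a filter on low counts neither passed (0.147 for Sema3f and 0.0736 for Sema4c). Plxnb3, the plexin known as a receptor of Sema5a and named for that role after its value was seen, rose to 4.16 ± 2.63 CPM in P1, against 1.03 ± 0.472 in WT (2.02 ± 0.61, edgeR adjusted p = 0.0403). It did not pass without P1 replicate 5 (0.103), WT A (0.123), WT B (0.162) or WT C (0.0874), nor with library totals (0.0834). The 1 lower gene was Cd72, a B cell receptor for semaphorin 4D and also 1 of the 15 B cell markers, which fell to 38.5 ± 16.5 CPM in P1, against 259 ± 37.1 in WT (-2.75 ± 0.36, edgeR adjusted p = 0.00133).

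Of 14 genes of the CAP superfamily 4 were tested, 6 were at 0 in every library and the others fell to the filter on low counts. Crisp1 had 0 counts in each P1 library and 0, 3 and 2 in WT, and Crisp2 had 2, 0 and 3 in P1 and 0 in each WT library. Over the 3 WT libraries Crisp3 had 494 counts. Crispld2 and Pi16, secreted members of the superfamily, rose to 24.4 ± 8.8 and 29.2 ± 19 CPM in P1, against 0.159 ± 0.059 and 0.509 ± 0.221 in WT (7.20 ± 0.51 and 5.82 ± 0.66, edgeR adjusted p = 0.000359 and 0.00086).

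Of 47 heparan sulfate genes 34 were tested, and 7 were higher (20.6%) and 3 lower (8.82%), with a median of 0.24. None of the other 3-O-sulfotransferases passed the threshold. Hs3st2 averaged 6 ± 7.04 CPM in P1 and 4.45 ± 2.26 in WT (0.46 ± 1.00, edgeR adjusted p = 0.769), and Hs3st3b1 3.17 ± 1.95 and 8.14 ± 1.6 (-1.39 ± 0.55, edgeR adjusted p = 0.0976, and 0.0453 with DESeq2). Per kilobase Hs3st1 stood at 21.4 CPM in WT, against 1.46 for Hs3st2 and 1.66 for Hs3st3b1. Xylt1, whose enzyme starts the sugar chain on the core protein, fell to 47.9 ± 11.1 CPM in P1, against 174 ± 11.7 in WT (-1.86 ± 0.27, edgeR adjusted p = 0.00185). Srgn, a proteoglycan core of secretory granules, fell by 1.12 ± 0.35 and the chain polymerase gene Ext2 by 0.80 ± 0.25 (edgeR adjusted p = 0.0426 and 0.0465). Srgn did not pass without P1 replicate 4 (0.0942), P1 replicate 5 (0.0827), WT B (0.163) or WT C (0.117), nor Ext2 without P1 replicate 4 (0.0674), WT A (0.122), WT B (0.153) or WT C (0.142). With library totals neither passed (0.057 for Srgn and 0.147 for Ext2), nor did Ext2 without a filter (0.0614). The glypican gene Gpc1 and the collagen gene Col18a1, both core proteins, rose by 4.50 ± 0.56 and 3.85 ± 0.77, and Papss2, which makes the sulfate donor, by 2.72 ± 0.67 (edgeR adjusted p = 0.00111, 0.00697 and 0.0178). Leaving out WT A (0.0782) or WT B (0.0752) ended the Papss2 call. For the list, 4 higher and 2 lower genes were called when WT A was left out, 4 and 1 without WT B, 6 and 1 without WT C, 8 and 1 without P1 replicate 4, and 10 and 5 without P1 replicate 5.

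Of 47 PX domain genes 43 were tested, and 10 were higher (23.3%) and 8 lower (18.6%), with a median of -0.25. Pxk fell to 25.4 ± 12.9 CPM in P1, against 260 ± 37.4 in WT (-3.34 ± 0.40, edgeR adjusted p = 0.000934). Sh3pxd2a, a scaffold of invasive cell protrusions, fell by 2.95 ± 0.30 and the sorting nexin Snx8 by 1.91 ± 0.29 (edgeR adjusted p = 0.000644 and 0.00233). The paralog Sh3pxd2b rose instead, to 60.2 ± 36.9 CPM in P1, against 1.13 ± 1.1 in WT (5.75 ± 0.84, edgeR adjusted p = 0.00204). The phospholipase gene Pld1 and Snx22 rose by 3.81 ± 0.65 and 3.60 ± 0.90 (edgeR adjusted p = 0.00373 and 0.0191), but Snx22 passed neither without WT A (0.0707) nor without WT B (0.0751), nor without a filter (0.0984). For the list, 6 higher and 5 lower genes were called when WT A was left out, and 5 and 5 without WT B.

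**Figure D4:**
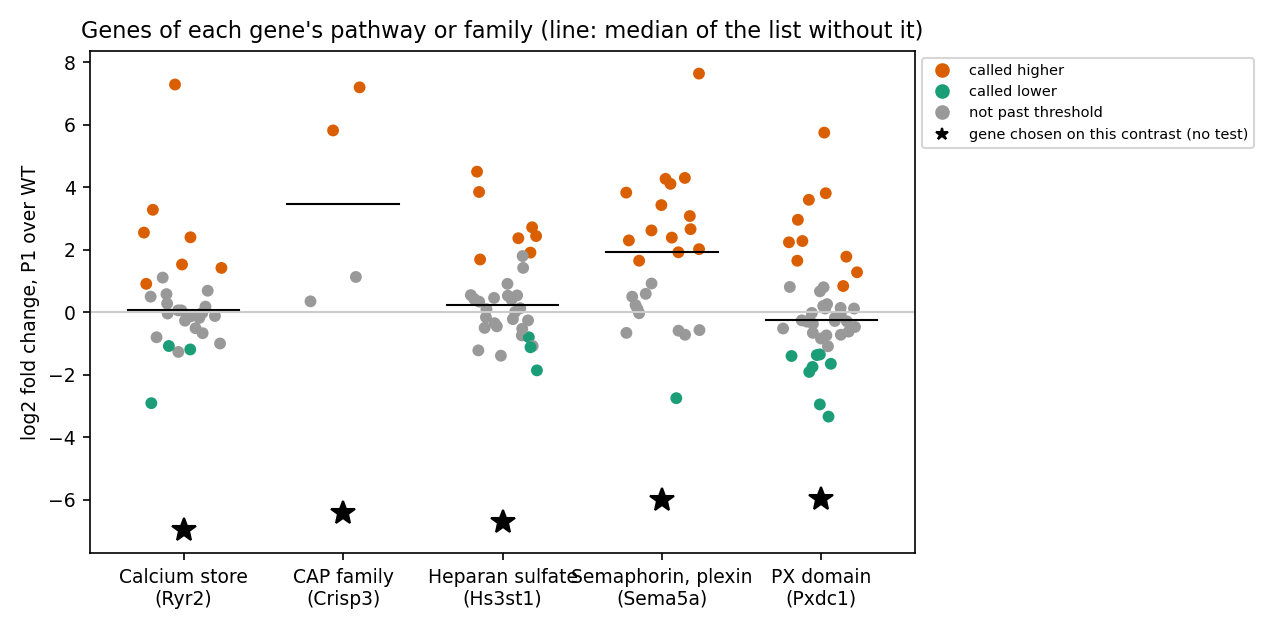
Fitted log2 fold change (P1 over WT) of the tested genes in the list of each of the 5 genes, coloured by call, with a line at the list median and a star at the chosen gene. Stars lie at -5.98 to -6.98, below every other gene of their list, but they were chosen for their fall on this same contrast. The medians run from -0.25 (PX domain) to 3.47 (CAP superfamily, 4 genes).

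A list of 11 genes was set beside the promoters: octamer and EBF factors, their targets, and the factor genes Pax5, Spi1, Spib, Tcf3 and Tcf4. Of these 10 were tested, and 1 was higher (10%) and 6 lower (60%), with a median of -1.27. Of the lower genes Ebf1, Pax5 and Spib also belong to the 15 B cell markers, of which 14 were lower. With those markers scaled equal, 6 of the list were called higher and 1 lower. Without any 1 WT library 4 were lower and 0 higher, and without P1 replicate 3 or 4 there were 5 and 6 lower and 0 higher (edgeR quasi-likelihood test). Pou2f2, the gene of Oct-2, was looked up after its value was known, for its link to Crisp3. It fell to 118 ± 8.42 CPM in P1, against 385 ± 4.79 in WT (-1.71 ± 0.25, edgeR adjusted p = 0.00199). Its coactivator gene Pou2af1 fell by 1.97 ± 0.32 and Pax5 by 2.21 ± 0.45 (edgeR adjusted p = 0.00285 and 0.00749). Ebf1, an early factor of the B lineage, fell furthest, to 26.6 ± 8.98 CPM in P1, against 466 ± 20.3 in WT (-4.13 ± 0.36, edgeR adjusted p = 0.000499). Cd36, a scavenger receptor also described as an Oct-2 target in mouse B cells, went the other way, with 139 ± 87.3 CPM in P1 and 31.1 ± 8.67 in WT (2.16 ± 0.56, edgeR adjusted p = 0.0226). The Cd36 call did not hold when P1 replicate 3, P1 replicate 4 or any 1 WT library was left out (adjusted p between 0.0558 and 0.0869), and myeloid and red cell precursors, which also express Cd36, had high markers in P1. Their part was not tested.

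The genes lie on 4 chromosomes, with Ryr2 and Pxdc1 both on chromosome 13, and spread over 20.5 (Crisp3) to 554 (Ryr2) kilobases. Within 500 kilobases of them 20 other genes were tested, of which 6 were lower (30%, against 11% of all tested genes), 3 higher (15%, against 16.9%) and 11 not past the threshold, with a median of -0.30. Of the 6 lower genes, 5 had few counts and passed the filter through the WT libraries alone, so that they could hardly be called anything but lower. The count of lower neighbours therefore shows nothing about these regions, and the counts of the 5 are given as a description. Snhg18, a small nucleolar RNA host gene, starts 0.1 kilobases from the start of Sema5a on the opposite strand and had 0, 1 and 0 counts in P1 and 32, 53 and 26 in WT. Gm47127, 15.6 kilobases past the end of Pxdc1 on the same strand, had 0, 1 and 0 counts in P1 and 25, 32 and 19 in WT. Gm42528, 3.59 kilobases past the end of Hs3st1 on the same strand, had 4, 0 and 0 counts in P1 and 59, 55 and 30 in WT. The others lie beyond Ryr2: Gm30239 had 0, 0 and 3 counts in P1 and 39, 17 and 11 in WT, and ENSMUSG00000119770 had 3, 3 and 1 in P1 and 32, 25 and 16 in WT. ENSMUSG00000119770 lies within the body of Ero1lb, another of the lower genes, on the same strand, so its reads may not be independent of that gene.

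Genes further out varied in direction. Mtr, the methionine synthase gene next to Ryr2, averaged 63.3 ± 19.3 CPM in P1 and 64.5 ± 4.15 in WT (-0.03 ± 0.27, edgeR adjusted p = 0.946). Ero1lb, an oxidase of the endoplasmic reticulum 459 kilobases from Ryr2, fell by 2.67 ± 0.39 (edgeR adjusted p = 0.00207). Slc22a23, a solute carrier gene 283 kilobases from Pxdc1 and named after its value was seen, rose to 154 ± 116 CPM in P1, against 4.26 ± 0.975 in WT (5.17 ± 0.62, edgeR adjusted p = 0.000989). On the other side Gm8231, 212 kilobases away, was at -0.33 ± 0.75 (edgeR adjusted p = 0.784). Cpq, 387 kilobases from Sema5a, rose by 1.80 ± 0.49 (edgeR adjusted p = 0.0258), but did not pass without WT A (0.118), WT B (0.111), WT C (0.0599) or P1 replicate 3 (0.0576), nor with library totals (0.0871). Crisp3 had no tested gene closer than 373 kilobases. That gene, ENSMUSG00000118642, took 136490 ± 92126 CPM in P1 and 65355 ± 18966 in WT and did not pass (1.06 ± 0.92, edgeR adjusted p = 0.43). It held 1016613 of the 7510327 counts of P1 replicate 4, and whether its reads come from this region was not tested. Within the gene bodies, 5 further models without their own test had at most 13 counts each over WT and 0 over P1. The library kit is directional, but since the counting strand is not given, reads of a gene and of an antisense partner cannot be told apart.

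**Figure D5:**
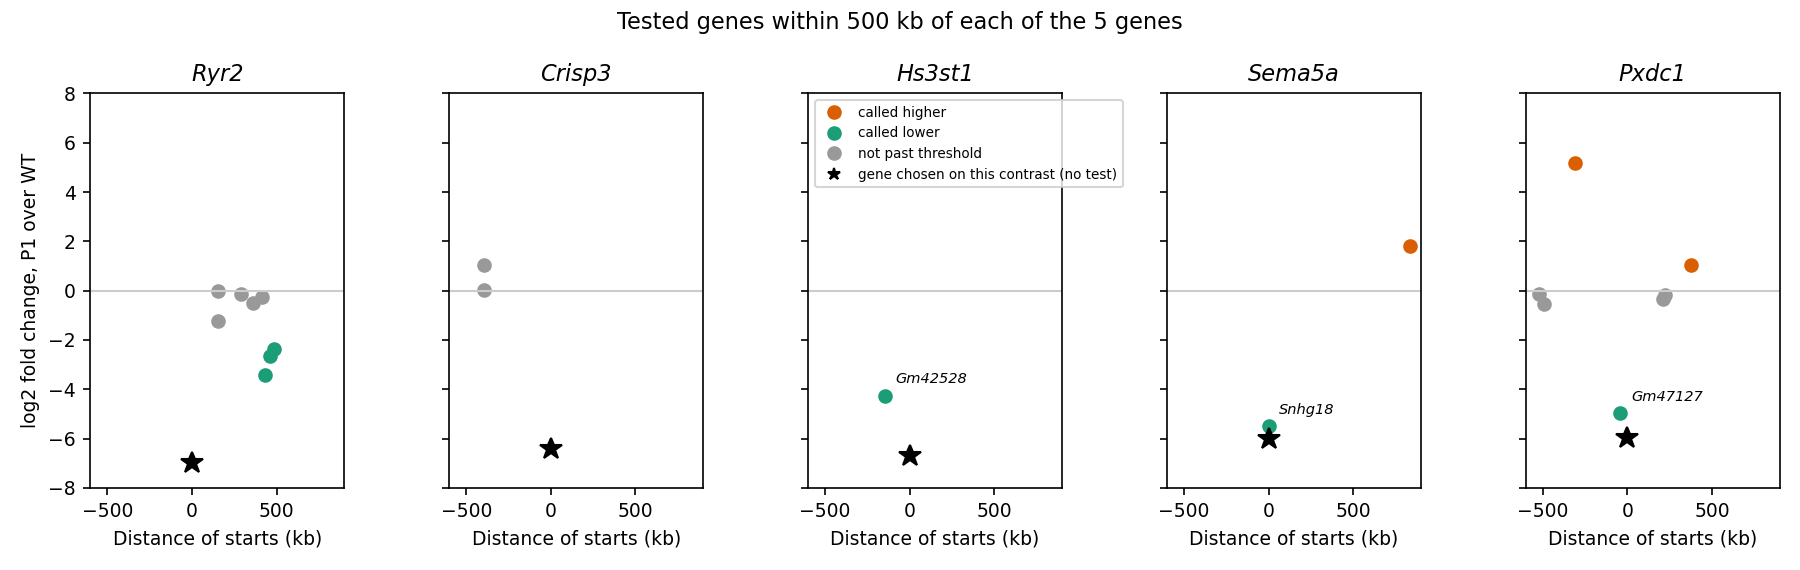
Fitted log2 fold change (P1 over WT) of the tested genes within 500 kilobases of each of the 5 genes, by the distance between gene starts in kilobases. Stars are the 5 chosen genes and colours give the call. Snhg18, Gm42528 and Gm47127 lie lower beside Sema5a, Hs3st1 and Pxdc1, at -5.51 to -4.27, while Mtr, next to Ryr2, lies at -0.03 and Slc22a23 at 5.17.

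The profiles most like those of the 5 genes were sought among 8903 tested protein-coding genes with curated symbols and a mean of at least 5 CPM in WT. Likeness was the root mean square difference, over the 6 libraries, of log2 CPM centred on the WT mean. Among the 5 themselves it ran from 0.43 (Ryr2 and Crisp3) to 1.20 (Crisp3 and Pxdc1). The measure takes in the size of the fall in P1, for which the 5 were chosen, so their closeness follows in part from the choice. Egr3, an immediate-early transcription factor gene, was nearest to Ryr2 (0.39) and also among the nearest of Hs3st1 (0.71) and Pxdc1 (0.86), with 84, 12 and 13 counts in P1 and 3278, 2829 and 3105 in WT. Map3k19, a kinase gene, was nearest to Crisp3 (0.47) and near Ryr2 (0.53) and Hs3st1 (0.96). Rasgrp3, a Ras activator downstream of the B cell receptor, was near Ryr2 (0.65) and Crisp3 (0.57), and Icosl, the ligand of the T cell receptor ICOS, near Crisp3 (0.61). Hspa1b and Hspa1a, near-identical heat shock genes between which reads are hard to assign, were nearest to Hs3st1 (0.66) and Pxdc1 (0.40), and Hspa1b was also near Pxdc1 (0.58). Sema5a had other neighbours: Ell3, an elongation factor gene (0.54, with 2, 2 and 0 counts in P1 and 181, 144 and 148 in WT), Iqcn (0.61) and Rapgef4 (0.65). In log2 CPM the prior count lifts low values, so that part of the likeness of Ryr2 and Crisp3 lies in their low counts.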

How the data were processed

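The authors deposited 1 table of raw counts for 56884 genes in 6 libraries, made from total RNA with a directional kit and 50 ng of input. The submitters' processing notes name Trim Galore, HISAT2, featureCounts and the build GRCm39. Versions, settings and the counting strand are not given in the sources used here. Gene lengths are the deposited values of the table. Symbols were matched by Ensembl ID for 51948 genes (91.3%).

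Genes were filtered with filterByExpr and scaled with TMM. All 15462 remaining genes were tested by the quasi-likelihood F-test of edgeR (4.0.16, under R 4.3.3), adjusted by Benjamini-Hochberg with a threshold of 0.05. CPM here are counts scaled to a common, TMM-adjusted library total. Log2 CPM used a prior count of 2. Standard errors of log2 fold changes are the fold change over the square root of F. DESeq2 (1.42.0) was an alternative. Counting intervals are exact 95% intervals, and a count of 0 allows up to 3 counts. Both cover counting error only.

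The 5 genes, their lists and the tests were chosen with earlier results of these data known. Named besides them are up to 3 called genes of each list in each direction, their paralogs, the nearest tested neighbours and those called lower, and the 3 genes with the most similar profile per gene. Promoter windows are RefSeq's, on GRCm38.p6, while the coordinates of the table are on GRCm39.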

Additional observations from a re-analysis of the deposited data

How the results depend on the processing

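No paired analysis was possible because the P1 recipients and the WT mice are different animals and the labels give no pairing between them. Each of the 5 genes kept its direction under every alternative run. Equal B cell markers gave log2 fold changes of -4.39 (Ryr2), -3.75 (Crisp3), -3.88 (Hs3st1), -2.86 (Sema5a) and -2.57 (Pxdc1), and differences from the marker mean of -4.62 for Ryr2 and -4.32 for Crisp3. Library totals gave -6.93 for Hs3st1. Leaving out 1 library gave -10.03 to -6.44 for Ryr2 and -9.98 to -5.85 for Crisp3, both lowest without P1 replicate 3, where all P1 counts are 0 and the fitted fold is no bound. Leaving out 1 library gave 1644 to 3206 genes higher (1715 without WT A, 1644 without WT B) and 815 to 2313 lower (827 without WT A, 815 without WT B, 979 without WT C). In the lists it gave 20 to 43 higher (21 without WT A) and 13 to 27 lower, and 1 to 3 higher and 4 to 6 lower among the neighbours. Under equal B cell markers 14044 genes were higher and 100 lower, 135 and 1 in the lists and 13 and 0 among the neighbours. Library totals left 1 neighbour higher, and without a filter on low counts 2 were. That scaling of the markers turned 17 of 45 named genes to the other sign, where the median of all genes moved to 3.07: Itpr3 0.18, Itpr2 1.94, Camk2d 1.97, Cd72 0.15, Xylt1 1.36, Srgn 1.94, Ext2 2.21, Hs3st3b1 1.91, Sh3pxd2a 0.28, Snx8 1.09, Pou2f2 1.42, Pou2af1 0.99, Pax5 0.64, Ero1lb 0.31, ENSMUSG00000119770 0.57, Mtr 3.24 and Gm8231 2.30. Genes not past the threshold also changed sign when 1 library was left out: Hs3st2 ranged over -1.25 (without P1 replicate 3) to 1.02, Mtr over -0.28 to 0.09 (above 0 without P1 replicate 3 or 5) and Gm8231 over -1.79 to 0.12 (above 0 without P1 replicate 3 or 4, and 0.02 without WT C). Of 492 values of single named genes under the alternatives, 406 kept their direction and side of the threshold, 58 lost a call, 5 gained one and 23 changed sign. The settings for Plxnb3 and the marker ratios without single P1 libraries were chosen after seeing the data. The promoter matches were the same 4 with the 250 bases before the start alone. With 2 to 55 counts in P1, depth limits how finely the 5 remaining levels can be ordered.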
